A study of Mus musculus with 30 samples.

Results

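The fecal bacteria of 6 high-fructose mice given tyrosol were compared with those of 6 high-fructose mice given saline, the model group, which makes 12 of the 30 mice of the series. The mice were found by the group label of each sample. All were female mice, C57BL/6 by the labels and C57BL/6J by the methods, and the age given, 6 weeks, is that at purchase, before the feeding. Both groups ate the high-fructose diet, so that the groups differ by tyrosol in the daily gavage against the saline of the model group. Stool DNA was extracted, the 16S rRNA gene was amplified and sequenced, and the deposited tables hold counts per sequence. Each distinct sequence is an amplicon sequence variant, or ASV. A share is a percent of all counts of a mouse in the table from which the authors had removed singletons.

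Tyrosol is a simple phenylethanoid of olive oil, wine and Rhodiola. Such phenols are in part taken up in the gut, conjugated and returned with the bile, and gut bacteria meet both forms. The question put to these data was which bacteria of the feces differ between mice with and without tyrosol on the same diet. A share is relative, so that fewer bacteria of a kind and more of all the others cannot be told apart.

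The 6 tyrosol mice had from 88185 to 106609 counts (median 100956) and the 6 model mice from 87731 to 104427 (median 98991), and input reads did not differ beyond the spread between mice (two-sided exact permutation test, p = 0.297). A count of 0 allows up to 3 counts, which is a share of up to 0.00281% to 0.00342% in these mice. The strict anaerobes listed for the gut held from 6.06 to 18.8% of counts in the tyrosol mice and from 0.394 to 17.5% in the model mice, while Acinetobacter, an aerobe of soil, water and skin, had a median of 60.2% in tyrosol mice and 59.0% in model mice. Model mouse 6 and tyrosol mouse 6 stood apart from the others, with 0.166% (95% Wilson interval 0.143 to 0.194) and 1.05% (0.986 to 1.12) Acinetobacter. Results that rest on them are also given without both. The labels give no cage and no sequencing batch, so these cannot be told apart from the group.

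**Figure D1:**
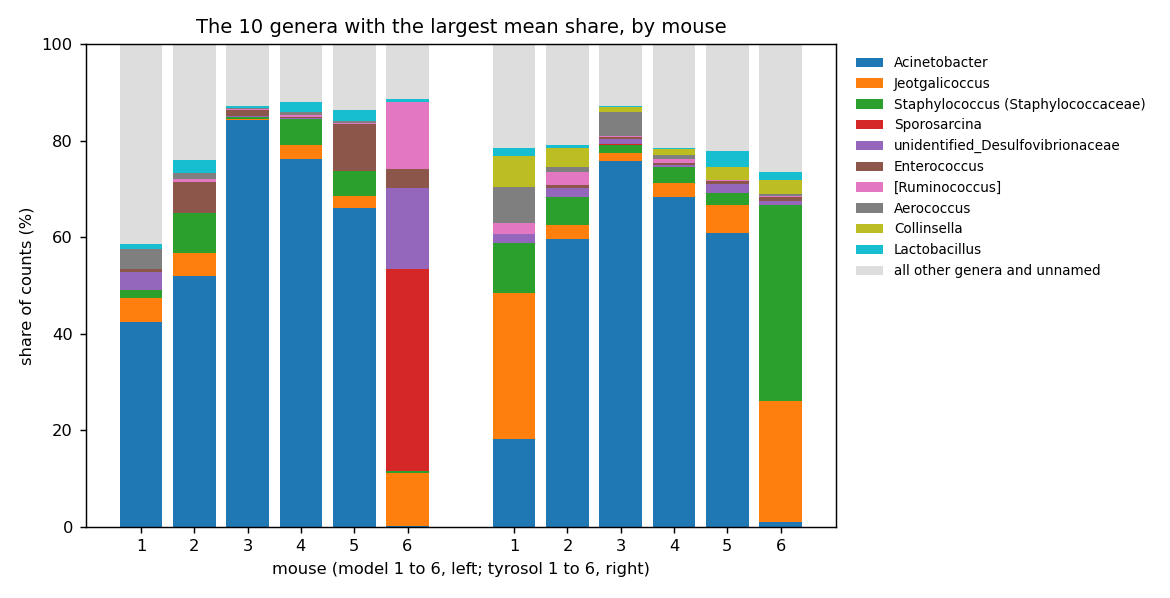
Stacked bars give the share of counts (%) of the 10 genera with the largest mean share in each of the 6 model mice (left) and 6 tyrosol mice (right), with all other genera and unnamed counts in light grey. Acinetobacter fills most of the bar in 4 tyrosol mice and is nearly absent from both mice 6, and the Collinsella band is visible in the tyrosol mice alone, from 0.891 to 6.51%.

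The clearest difference was in Collinsella, a strictly anaerobic, saccharolytic genus of Coriobacteriaceae whose members modify bile acids. Its lowest share in the tyrosol mice was 0.891%, the median 2.75% and the highest 6.51%, carried by 5883, 4277, 950, 1298, 2437 and 2625 counts in tyrosol mice 1 to 6. In the model mice it was 0 in 5 mice and 6 counts in model mouse 6, a share of 0.00598% (95% Wilson interval 0.00274 to 0.0130). Every tyrosol mouse was far above every model mouse. Collinsella rose by 10.92 on the log2 scale (SE 1.76, edgeR's quasi-likelihood test, adjusted p = 0.000185). Of the 101 genera tested, 2 (1.98%) passed in this comparison, both higher in tyrosol mice. The call was kept in all 23 alternative fits of the counts, with log2 fold changes from 9.55 to 14.20, and without both mice 6 it was 14.19.

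ASV_11531, named Collinsella stercoris in the deposited taxonomy, held 99.0% of the counts of the genus, which had 24 ASVs in all. In the tyrosol mice ASV_11531 made up from 98.4 to 100% of Collinsella in each mouse. With the counts of Acinetobacter left out of the total, the share of Collinsella had a lowest value of 3.01%, a median of 5.14% and a highest value of 10.1% in tyrosol mice. The mean share over all counts was 0.000598% in the control mice on normal diet, 2.94% in the salidroside mice and 2.40% in the hydroxytyrosol mice, groups not tested here.

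Christensenella, an anaerobic gut Firmicute of low abundance, was the other genus that rose. Its share in tyrosol mice had a lowest value of 0.0145%, a median of 0.0369% and a highest value of 0.0837%, from 39, 88, 31, 47, 14 and 27 counts in tyrosol mice 1 to 6. It was 0 in all 6 model mice. The mean of the tyrosol mice was at least 13.2-fold higher, taking 3 counts in each model library as the floor, or at least 10.4-fold without the highest tyrosol mouse (edgeR, adjusted p = 0.00905). The lowest tyrosol share, of 14 counts, has a 95% Wilson interval from 0.00862 to 0.0243%, which lies above that floor. The genus was called in all 22 alternative fits of the counts in which it was tested. ASV_15743 held 64.2% and ASV_12488 34.6% of its counts. Christensenella also had 0 counts in the control mice, a mean of 0.000908% in salidroside mice and 0.0145% in hydroxytyrosol mice.

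Collinsella, Christensenella and Subdoligranulum reached the minimum of 10 counts in tyrosol mice alone, so a feature of this kind had to differ to be tested at all. Among the 94 genera that reached the minimum in mice of both groups, edgeR called 0 at an adjusted p under 0.05, and 4 reached it in model mice alone, also with 0 called. Over all genera 22 had an unadjusted p under 0.05. Of these, 7 were higher in tyrosol mice (6.93% of genera tested) and 15 were lower (14.9%).

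**Figure D2:**
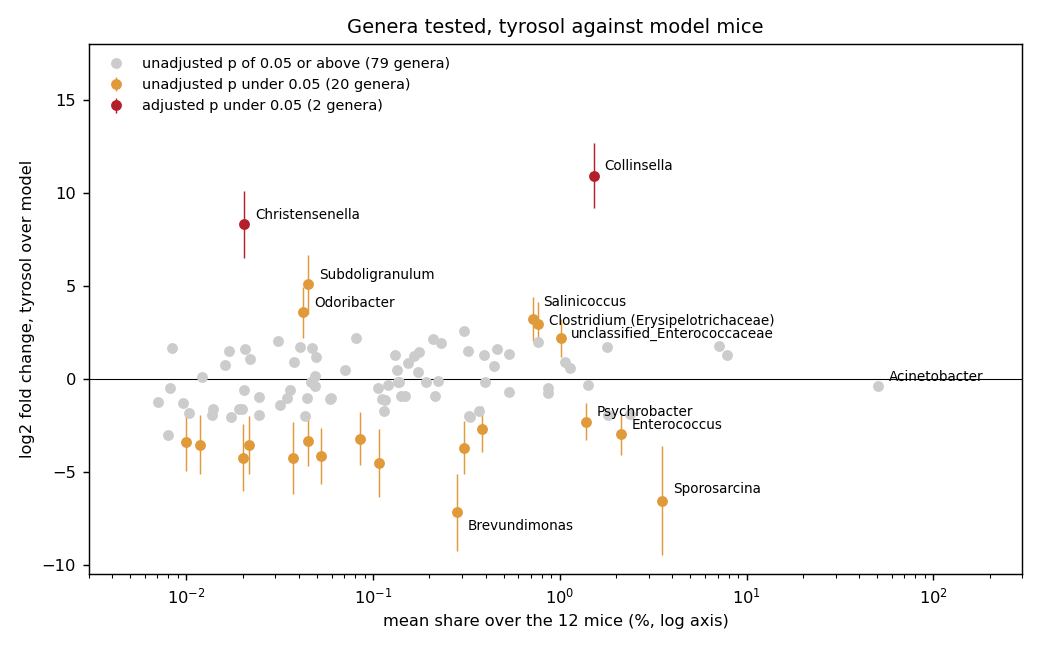
Each point is 1 of the 101 genera tested, with its mean share over the 12 mice (%, log axis) on the x axis and the edgeR log2 fold change of tyrosol over model on the y axis, and bars give 1 SE for genera with an unadjusted p under 0.05. Collinsella at 10.92 and Christensenella at 8.31 lie apart from the other genera, and more of the remaining coloured points lie below 0 than above it.

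The shares of 4 genera (3.96% of those tested) did not overlap between the groups, all of them higher in tyrosol mice. Beside Collinsella and Christensenella these were Subdoligranulum, a butyrate-producing member of Ruminococcaceae, and the genus named Clostridium within Erysipelotrichaceae. Subdoligranulum ranged from 0.00775% through a median of 0.0459% to 0.289% in tyrosol mice, and was 0 in 4 model mice and at most 0.00512% in the other two. Its log2 fold change was 5.08 (SE 1.58, edgeR, adjusted p = 0.0909), and it passed in 4 of 22 alternatives, at the lowest with DESeq2 (adjusted p = 0.00117). Clostridium of Erysipelotrichaceae ranged from 0.580% through 1.15% to 2.57% in tyrosol mice and from 0.00307% through 0.129% to 0.487% in model mice. Its log2 fold change was 2.97 (SE 1.18, edgeR, adjusted p = 0.189), and it passed in 1 of 23 alternatives, centred log-ratios (limma, adjusted p = 0.0318). Each of the 4 had the smallest p that 6 against 6 mice allow in a two-sided exact permutation test of the shares, 0.0022, which over 101 genera adjusted to 0.0547.

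**Figure D3:**
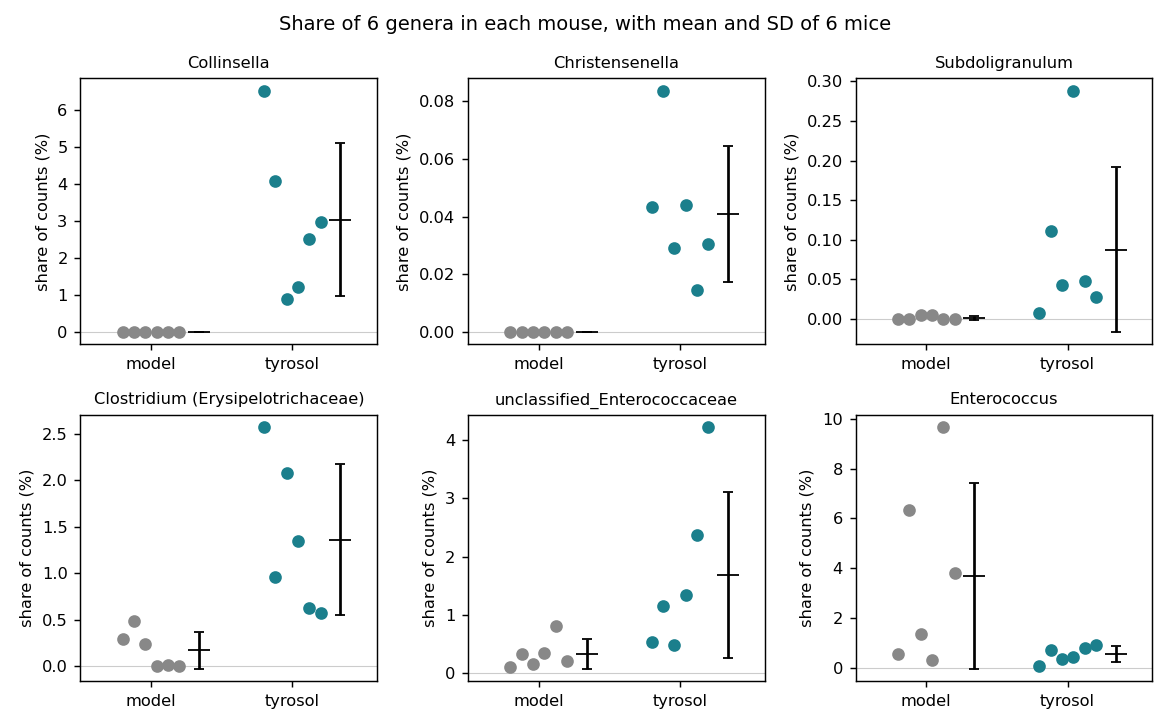
Points give the share of counts (%) of 6 genera in each of the 6 model mice (grey) and 6 tyrosol mice (blue-green), with the mean and SD of each group beside them and a separate y axis for each genus. The groups are separated in Collinsella, Christensenella, Subdoligranulum and Clostridium of Erysipelotrichaceae, and overlap in unclassified_Enterococcaceae and Enterococcus.

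Odoribacter and Salinicoccus were also among the 5 highest log2 fold changes with an unadjusted p under 0.05. Odoribacter, an anaerobe of Bacteroidales that makes short-chain fatty acids, had a lowest share of 0.0141%, a median of 0.0755% and a highest share of 0.161% in tyrosol mice, against 0, 0.00204 and 0.0182% in model mice (log2 fold change 3.56, edgeR, adjusted p = 0.189, or 0.0182 with DESeq2). Salinicoccus, a salt-tolerant aerobe, ran from 0.0685% through 0.273% to 4.92% in tyrosol mice and from 0.00790% through 0.166% to 0.410% in model mice (3.21, edgeR, adjusted p = 0.189). Both genera overlapped between the groups, and the highest Salinicoccus share was that of tyrosol mouse 6. Without both mice 6 the log2 fold change of Salinicoccus was 0.46 (edgeR, adjusted p = 0.774).

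Enterococcus, a facultatively anaerobic lactic acid genus, had a lowest share of 0.324%, a median of 2.60% and a highest share of 9.66% in model mice. In tyrosol mice these were 0.0609, 0.568 and 0.932%. The groups overlapped at the low end of the model mice. The log2 fold change was -2.97 (SE 1.12, edgeR, adjusted p = 0.189), and the two-sided exact permutation test of the shares gave p = 0.0455, which adjusted to 0.253. DESeq2 was the 1 of 23 alternatives in which it passed (adjusted p = 0.0328). ASV_44518, singled out after its values were seen, held 83.1% of the pooled Enterococcus counts of the model mice and 36.7% of those of the tyrosol mice. Per mouse this weight ran from 17.4 to 93.2% in model mice and from 0 to 55.3% in tyrosol mice, so that the groups overlapped. Its share was 0.0969, 5.92, 0.744, 0.183, 8.39 and 3.02% in model mice 1 to 6 and at most 0.397% in any tyrosol mouse (log2 fold change -4.51, SE 1.64, edgeR, adjusted p = 0.0652).

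The counts of Enterococcaceae that carry no genus name had the opposite order. This feature, unclassified_Enterococcaceae, was singled out after its values were seen and ran from 0.478% through 1.25% to 4.22% in tyrosol mice and from 0.114% through 0.271% to 0.815% in model mice (log2 fold change 2.19, edgeR, unadjusted p = 0.0394). It did not pass after adjustment. A tyrosol mouse was higher in 34 of the 36 pairs of a tyrosol and a model mouse. The family as a whole had a mean of 2.25% ± 1.69 (SD, n = 6) in tyrosol mice and 4.02% ± 3.94 in model mice, with a log2 fold change of -1.47 (edgeR, adjusted p = 0.399).

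The 5 lowest log2 fold changes with an unadjusted p under 0.05 were those of Brevundimonas, Sporosarcina, Pseudomonas of Pseudomonadaceae, unclassified_Pseudomonadaceae and Comamonas, aerobes or families of aerobes, and none passed the adjusted test at the settings used here. Brevundimonas had a log2 fold change of -7.18 (edgeR, adjusted p = 0.0703). It rested on model mouse 2, at 3.23% (95% Wilson interval 3.12 to 3.35), while the next model mouse had 0.0832% and the highest tyrosol mouse 0.0152%. Without model mouse 2 its log2 fold change was -2.56. It passed the adjusted test in 7 of 20 alternatives, among them no filter (edgeR, adjusted p = 0.00676), all 30 mice in one model (adjusted p = 0.0316) and model mouse 1, 3, 5 or 6 or tyrosol mouse 2 left out. Sporosarcina, at -6.55, held 41.9% of the counts of model mouse 6 (95% Wilson interval 41.6 to 42.2) and at most 0.0348% in any other model mouse. Its log2 fold change was 2.96 without both mice 6. Pseudomonas of Pseudomonadaceae, at -4.52, had a median of 0.0689% in model mice and 0.00234% in tyrosol mice. The unclassified genus of the same family was at -4.26 and Comamonas at -4.24, and both were at 0 in most tyrosol mice. Without model mouse 3 these were -2.33 and -2.54, and without tyrosol mouse 4, which held all counts of the unclassified genus in its group, that genus passed the adjusted test (edgeR, adjusted p = 0.0339).

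The genera were also read by lists of their use of oxygen and their products. Of the 16 listed aerobes tested, 14 had a log2 fold change below 0, beside 60 of all 101 genera, with a median of -1.95 beside -0.41 over all genera. By the unadjusted test 8 of them were lower, beside 15 of 101 genera, and 1, Salinicoccus, whose value fell to 0.46 without both mice 6, was higher in tyrosol mice. The lower ones were Brevundimonas, Sporosarcina, Pseudomonas, Comamonas, Sphingobacterium (-4.15), Ochrobactrum (-3.70), Stenotrophomonas (-3.32) and Psychrobacter (-2.30), none past the adjusted test at the settings used here. Beside Brevundimonas, Sphingobacterium passed in 4 of 22 alternatives (DESeq2, centred log-ratios, the even-depth table and without tyrosol mouse 2), Ochrobactrum in 1 of 22 (all 30 mice in one model) and Psychrobacter in 1 of 23 (without model mouse 6). Ochrobactrum, like Brevundimonas, rested on model mouse 2, which had 3.17% where the other model mice had at most 0.150%, and its log2 fold change was -0.91 without that mouse. Sporosarcina changed sign without both mice 6, as given above. Their combined share with Acinetobacter and the other listed aerobes was from 6.95 to 78.0% in tyrosol mice (median 63.2%) and from 42.9 to 86.5% in model mice (median 66.8%).

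Of the 21 strict anaerobes tested, 13 were above 0, beside 41 of all 101 genera, with a median of 1.16 beside -0.41. Collinsella and Christensenella, both of which reached the count minimum in tyrosol mice alone, were the 2 genera called in all. By the unadjusted edgeR test Odoribacter and Clostridium of Erysipelotrichaceae were also higher, and Alistipes was lower (-3.42). The summed share of the listed strict anaerobes was 10.1% ± 5.08 (SD, n = 6) in tyrosol mice and 5.89% ± 6.67 in model mice. Tyrosol mice 1 and 2 held the highest shares of their group, 18.8 and 12.8%, and model mouse 6 that of its own, 17.5%. With a mouse left out the difference, 4.22 percentage points, ran from 2.47 to 6.54. Bacteroides (-0.90), Akkermansia, a mucin degrader (0.57), and Mucispirillum (-0.15) were among those that did not pass either test.

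All 4 listed butyrate producers that could be tested had a log2 fold change above 0 (median 2.63), beside 41 of all 101 genera, and 2 of them passed the unadjusted test, beside 7 genera higher by it in all. Subdoligranulum, one of those that passed, reached the count minimum in tyrosol mice alone, so its direction was fixed by the filter. Coprococcus, which did not pass, was at -0.39 without tyrosol mouse 1. The summed share of all 8 listed butyrate producers with counts, tested or not, was from 0.0919 to 0.603% in tyrosol mice (median 0.243%). In model mice it was from 0.0154 to 0.0985% (median 0.0640%). Tyrosol mouse 6, the lowest of its group, lay within the range of the model mice. The 4 lactic acid genera tested were all below 0 (median -1.55), beside 60 of all 101 genera and a median of -0.41. One of them, Streptococcus, was at 0.024 without model mouse 6. The summed share of all 8 names of that list with counts, tested or not, was 2.10% ± 1.49 (SD, n = 6) in tyrosol mice and 5.82% ± 4.41 in model mice. Of the 4 tested, Enterococcus was the one that passed the unadjusted test. Of the 11 facultative anaerobes tested, 5 were above 0 and 6 below (median -0.17). Features with plant chloroplast or mitochondrial names did not reach the count minimum and were not tested.

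Among families, 2 of 58 (3.45%) passed the edgeR test at an adjusted p under 0.05. Coriobacteriaceae rose, with a lowest share of 0.909%, a median of 2.82% and a highest share of 6.54% in tyrosol mice and 0.00717, 0.0829 and 0.160% in model mice. The groups did not overlap, and the log2 fold change was 4.57 (SE 0.99, edgeR, adjusted p = 0.00426). Most of this was Collinsella. Without it the family held a median of 0.0411% in tyrosol mice and 0.0829% in model mice, ranges of 0.0169 to 0.146% and 0.00717 to 0.154% that overlapped. Of the other genera of the family, Adlercreutzia, which converts plant isoflavones to equol, had a log2 fold change of -1.08 (edgeR, adjusted p = 0.630).

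Caulobacteraceae, aquatic Proteobacteria with Brevundimonas as a member, fell by 6.15 on the log2 scale (SE 1.68, edgeR, adjusted p = 0.0307). Its shares were 0, 0.00611 and 0.0200% (lowest, median, highest) in tyrosol mice and 0.00479, 0.0188 and 3.63% in model mice, so that the groups overlapped, and the exact permutation test of the shares gave p = 0.0866. The highest share was that of model mouse 2. The call was lost when model mouse 2 was left out (log2 fold change -1.98, adjusted p = 0.536), and also without tyrosol mouse 1, 3, 4 or 6 (adjusted p of 0.0537, 0.0972, 0.0549 and 0.0805), where the log2 fold change stayed between -6.25 and -6.07. It was also lost without both mice 6 (-6.22, edgeR, adjusted p = 0.0610) and with centred log-ratios (-3.12, limma, adjusted p = 0.184).

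A two-sided exact permutation test of the shares, adjusted over the 58 families, passed for 4 of them, each at an adjusted p of 0.0314 and each without overlap. When any 1 of the 12 mice was dropped, all 4 families stayed at the smallest p that 5 against 6 mice allow, 0.00433, which passes after adjustment only where at least 6 of the 58 families share it, so that the loss of these calls in 11 of the 12 cases carries no information on their stability. The difference in share then ran from 2.31 to 3.44 percentage points for Coriobacteriaceae and from 1.52 to 2.01 for Erysipelotrichaceae. That of Christensenellaceae, 0.0596, was 0.0351 without tyrosol mouse 2, and that of Comamonadaceae, -0.203, was -0.103 without model mouse 2. With Acinetobacter left out of the total none of the 4 passed, and in the even-depth table Christensenellaceae did not. Without Acinetobacter, Coriobacteriaceae still did not overlap, at 3.06 to 10.4% in tyrosol mice and 0.0302 to 0.449% in model mice. Their p in the exact permutation test thus stayed at the smallest possible, 0.0022, and the call was lost through the adjustment over families alone. Erysipelotrichaceae overlapped between the groups in that setting. Coriobacteriaceae was one of the 4 families that passed over all counts, and the others are named here after their values were seen. Erysipelotrichaceae, Firmicutes that respond readily to diet, ran from 0.996% through 2.06% to 3.45% in tyrosol mice and from 0.0502% through 0.236% to 0.630% in model mice (edgeR log2 fold change 2.43, adjusted p = 0.0889). Without its Clostridium genus the family had a median of 0.410% in tyrosol mice and 0.131% in model mice, with ranges of 0.107 to 2.49% and 0.0205 to 0.189% that overlapped. Christensenellaceae ran from 0.0279% through 0.0380% to 0.189% in tyrosol mice and from 0 through 0.00368% to 0.0249% in model mice (2.90, edgeR, adjusted p = 0.138). Comamonadaceae, aerobic Proteobacteria, had the opposite order. Their shares were 0.0866, 0.119 and 0.735% in model mice and 0.0145, 0.0307 and 0.0685% in tyrosol mice (edgeR log2 fold change -3.13, adjusted p = 0.0889). DESeq2 called Erysipelotrichaceae, Christensenellaceae and Comamonadaceae in the same directions (adjusted p of 0.00456, 0.0171 and 0.0120).

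In the most abundant families other than Coriobacteriaceae, the means of the groups differed by less than the larger of their SDs. Moraxellaceae had a mean of 47.9% ± 30.4 (SD, n = 6) in tyrosol mice and 56.2% ± 30.4 in model mice. Acinetobacter, which makes up nearly all of it, had a log2 fold change of -0.40 (SE 1.12, edgeR, adjusted p = 0.826). Staphylococcaceae had a mean of 24.2% ± 28.1 in tyrosol mice and 8.4% ± 4.43 in model mice (0.95, edgeR, adjusted p = 0.534), and tyrosol mouse 6 alone had 73.2%. Planococcaceae were at 1.17% ± 0.99 and 8.54% ± 16.6 (-3.23, edgeR, adjusted p = 0.0889), with 42.0% in model mouse 6. Desulfovibrionaceae, sulfate reducers, were at 1.39% ± 0.659 and 4.0% ± 6.88 (-1.85, adjusted p = 0.338), Lachnospiraceae at 2.26% ± 1.73 and 3.17% ± 5.63 (-1.02, adjusted p = 0.527) and Aerococcaceae at 2.64% ± 3.22 and 1.25% ± 1.56 (1.2, adjusted p = 0.439). Without both mice 6 the log2 fold change was 0.24 for Staphylococcaceae, -0.23 for Planococcaceae, 0.79 for Desulfovibrionaceae and 1.22 for Lachnospiraceae, so that both of the latter changed sign.

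Among the genera of these families, Jeotgalicoccus, a halotolerant member of Staphylococcaceae, had a median of 4.34% in tyrosol mice and 3.77% in model mice, with ranges of 1.83 to 30.2% and 0.224 to 11.02% (log2 fold change 1.27, edgeR, adjusted p = 0.508). Staphylococcus of Staphylococcaceae had medians of 4.54 and 3.49%. The highest value was 40.6% in tyrosol mouse 6 (95% Wilson interval 40.3 to 40.9), and the log2 fold change turned from 1.78 to -0.69 without both mice 6. Aerococcus (1.7) had medians of 0.857% in tyrosol mice and 0.574% in model mice. Lactobacillus (-0.32), [Ruminococcus] (-1.93) and unidentified_Desulfovibrionaceae (-1.90) had adjusted p-values of 0.832, 0.437 and 0.437 in edgeR. [Ruminococcus] and unidentified_Desulfovibrionaceae held 13.8 and 16.8% in model mouse 6 and were above 0 on the log2 scale without both mice 6 (1.39 and 0.95).

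At the level of phyla, 0 of 7 passed the edgeR test, with 0 also at an unadjusted p under 0.05. DESeq2 and limma called 0 as well. By the exact permutation test of shares, Actinobacteria had the lowest p, 0.0108, which adjusted to 0.0758, with a mean of 4.52% ± 1.97 (SD, n = 6) in tyrosol mice and 1.43% ± 1.12 in model mice. A tyrosol mouse was higher in 33 of 36 pairs. Collinsella made up from 30.9 to 94.9% of the Actinobacteria of a tyrosol mouse, and without it the phylum was at 1.49% ± 1.06 and 1.43% ± 1.12. Proteobacteria were at 50.9% ± 31.2 and 64.9% ± 25.1, Firmicutes at 41.0% ± 30.01 and 30.7% ± 25.0, Bacteroidetes at 1.47% ± 1.28 and 1.10% ± 0.762, and Verrucomicrobia at 1.2% ± 1.5 and 1.07% ± 2.12. The differences turned on single mice. That of Firmicutes, 10.3 percentage points, was 0.348 without tyrosol mouse 6 and 19.8 without model mouse 6, and that of Proteobacteria, -13.9, was -4.2 and -23.1. The 5 Bacteroidales families tested had a median log2 fold change of 1.09, beside -0.997 over all families, and 0 of them were called.

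More calls were made among single sequences, nearly all of them in sequences that passed the filter through 1 group alone. Of 424 ASVs tested, which held 88.5% of the counts, edgeR called 36 (8.49%) at an adjusted p under 0.05, 32 higher and 4 lower in tyrosol mice. Of the 32, 30 had 0 counts in all 6 model mice, and 16 were found in all 6 tyrosol mice, 9 in 5 and 7 in 4. Together they made up 8.79, 5.96, 2.17, 4.67, 4.93 and 6.89% of the counts of tyrosol mice 1 to 6 and at most 0.00987% of a model mouse. Without ASV_11531 of Collinsella, the other 31 still summed to a median of 2.40% in tyrosol mice, from 1.28 to 3.94%. The sequences were chosen by their difference between the groups, so these sums do not test it.

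The filter matters for these counts. Of the ASVs, 33 reached the minimum in tyrosol mice alone, of which 31 were called, and 7 in model mice alone, of which 4 were called, so that such a sequence had to differ. Of the 384 that reached it in both groups, 1 was called, ASV_5657 of Oscillospira. With no filter, edgeR called 2 of 5558 ASVs, and 0 of the 36 were among them. By exact permutation tests of shares 22 of the 424 ASVs passed after adjustment, and 17 of the 36 were among them.

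**Figure D4:**
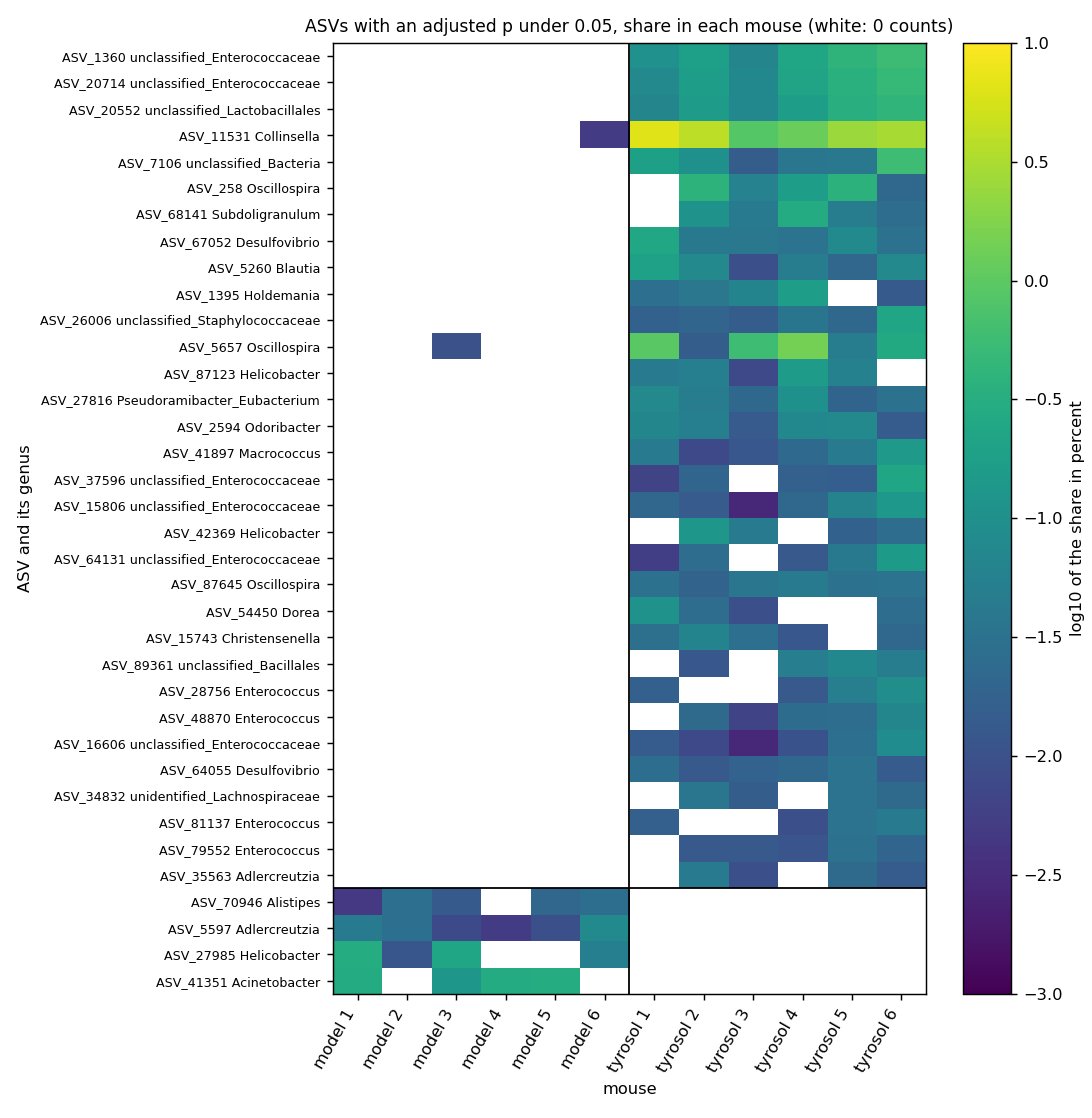
The heat map gives the log10 of the share (%) of the 36 called ASVs in each of the 6 model and 6 tyrosol mice, with white for 0 counts, the 32 higher in tyrosol above the horizontal line and the 4 lower ones below it. The model columns are white for 30 of the 32, and the tyrosol columns are white for all 4 below the line.

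After ASV_11531, the 3 sequences with the lowest p had names within Lactobacillales, the order of the lactic acid bacteria, and 5 further sequences shared their adjusted p. ASV_1360 of unclassified_Enterococcaceae had 95, 188, 71, 243, 387 and 479 counts in tyrosol mice 1 to 6 and 0 in every model mouse. The mean was at least 82.0-fold higher in tyrosol mice (edgeR, adjusted p = 0.00705). ASV_20714 of the same feature and ASV_20552 of unclassified_Lactobacillales were at least 73.8-fold and 65.6-fold higher with the same adjusted p. The 3 moved together from mouse to mouse. ASV_20714 had from 0.726 to 1.11 times the counts of ASV_1360 in a tyrosol mouse, and ASV_20552 from 0.632 to 1.11 times. All 3 were also at 0 in the control mice and were found in 6, 5 and 4 of the salidroside mice and in 6, 5 and 5 of the hydroxytyrosol mice.

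Of the 15 ASVs of unclassified_Enterococcaceae tested, 6 were called, and of the 13 of Enterococcus 4 were called, beside the 8.49% over all ASVs. All 10 were higher in tyrosol mice and at 0 in all model mice. They passed the filter through tyrosol mice alone, so their direction was fixed by it. Their number beside the 8.49% is not read as an excess for these names. Their summed share was 0.262, 0.459, 0.166, 0.567, 1.04 and 1.86% in tyrosol mice 1 to 6. The rest of Enterococcaceae had a median of 1.33% in tyrosol mice and 2.80% in model mice, with ranges of 0.337 to 3.30% and 0.674 to 10.5% that overlapped. The leading sequence of the rest, ASV_44518, was above every tyrosol mouse in 4 of the 6 model mice.

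Oscillospira, a Ruminococcaceae genus of the gut, had 3 of its 10 tested ASVs called, beside the 8.49% over all ASVs. Of the 3, 2 were at 0 in all model mice. These passed the filter through tyrosol mice alone, so the count is not read as an excess for the genus. ASV_5657 had 854, 16, 613, 1533, 46 and 241 counts in tyrosol mice 1 to 6 and 10 counts in model mouse 3 alone (log2 fold change 8.69, SE 2.29, edgeR, adjusted p = 0.00705). ASV_258 was found in 5 tyrosol mice, with up to 403 counts, and was at least 54.8-fold higher. ASV_68141, named Subdoligranulum variabile, was found in 5 tyrosol mice and was at least 27.8-fold higher (edgeR, adjusted p = 0.0123), or 14.9-fold without tyrosol mouse 4, which held 305 of its counts. In the exact permutation test of shares, ASV_258 and ASV_68141 each had an adjusted p of 0.146. ASV_7106, with no name below the domain of bacteria, was found in all 6 tyrosol mice and was at least 51.9-fold higher, or 24.7-fold without tyrosol mouse 6, which held 513 of its counts. The other called ASVs belonged to Desulfovibrio (2), Helicobacter (2) and, with 1 each, to Adlercreutzia, Blautia, Christensenella, Dorea, Holdemania, Macrococcus, Odoribacter, Pseudoramibacter_Eubacterium, unidentified_Lachnospiraceae, unclassified_Staphylococcaceae and unclassified_Bacillales.

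The 4 ASVs that fell were at 0 in all tyrosol mice. ASV_41351, named Acinetobacter lwoffii, had 257, 131, 280 and 310 counts in model mice 1, 3, 4 and 5 and 0 in the other two, and the model mean was at least 54.9-fold that of tyrosol mice (edgeR, adjusted p = 0.00705). It was the only one of 160 tested Acinetobacter ASVs that passed. ASV_27985 of Helicobacter was found in 4 model mice, with 11 to 264 counts, and was at least 32.7-fold higher there, or 19.5-fold without model mouse 1. In the exact permutation test of shares, ASV_41351 and ASV_27985 each had p = 0.0606, which adjusted to 0.306. ASV_5597 of Adlercreutzia was found in all 6 model mice, with 5 to 83 counts, and was at least 9.90-fold higher, or 6.46-fold without model mouse 6. ASV_70946, named Alistipes finegoldii, was found in 5 model mice. Of the 3 Helicobacter ASVs tested, 2 were called higher and 1 lower, and of the 4 of Adlercreutzia 1 was called higher and 1 lower, beside the 8.49% over all ASVs. Each of these called ASVs was at 0 in the other group and so passed the filter through 1 group alone.

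The most abundant sequence of the 12 mice was ASV_14106, named Acinetobacter lwoffii, which was the largest in 5 model mice and 4 tyrosol mice. It held 50.5% of Acinetobacter counts in tyrosol mice and 52.3% in model mice. The next one, ASV_86274, held 18.3% and 6.51%. The largest sequence was Jeotgalicoccus ASV_48019 in tyrosol mouse 1 (25.2% of its counts), Staphylococcus ASV_74631 in tyrosol mouse 6 (30.9%) and Sporosarcina ASV_8872 in model mouse 6 (31.1%).

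The ASVs that were called in tyrosol mice were also looked up in the groups outside the comparison. Of the 32 higher ones, 4 (12.5%) were found in any control mouse, 27 (84.4%) in any salidroside mouse and 21 (65.6%) in any hydroxytyrosol mouse. Of all 424 ASVs tested, these shares were 69.1, 92.2 and 53.1%.

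Richness and evenness were compared in the authors' table rarefied to 39768 counts per mouse. Observed ASVs were 661, 983, 686, 870, 915 and 705 in tyrosol mice 1 to 6 and 963, 661, 884, 902, 820 and 500 in model mice 1 to 6. The groups overlapped almost fully, and a tyrosol mouse was higher in 19 of 36 pairs. The means were 803 ± 136 (SD, n = 6) and 788 ± 175 (two-sided exact permutation test, p = 0.874, adjusted 0.942). The Shannon index in base 2 was 5.14 ± 0.581 and 5.17 ± 0.620, and the Simpson index 0.872 ± 0.0467 and 0.865 ± 0.0491. Pielou evenness was 0.533 ± 0.0508 and 0.538 ± 0.0502. None of the 5 indices, with Chao1 the remaining one, passed in the exact permutation tests, where adjusted p was 0.942 for each. The number of ASVs that held 90% of the counts was from 65 to 148 in tyrosol mice and from 26, in model mouse 6, to 147 in model mice.

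**Figure D5:**
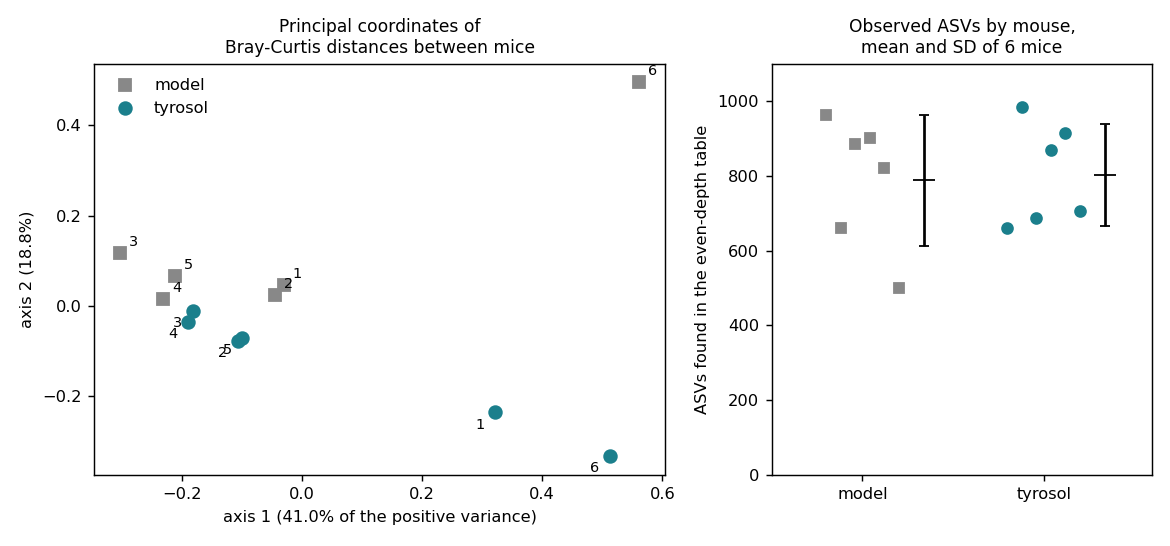
The left panel places the 12 mice on the first 2 principal coordinates of Bray-Curtis distances (axes labelled with the percent of the positive variance), numbered by mouse, with squares for model and circles for tyrosol, and the right panel gives observed ASVs at even depth per mouse with the mean and SD of 6 mice. Model mouse 6 and tyrosol mice 1 and 6 lie to the right of the others, and the means of observed ASVs are 803 and 788.

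Bray-Curtis distances, which weight abundant sequences, had a mean of 0.580 between tyrosol mice, 0.623 between model mice and 0.636 between a tyrosol and a model mouse. The group accounted for an R2 of 0.129 (exact permutation test of the R2 over all splits of the 12 mice, p = 0.152). The distance to the group centroid was 0.379 ± 0.120 (SD, n = 6) in tyrosol mice and 0.404 ± 0.167 in model mice (exact permutation test, p = 0.747). With Jaccard distances, which see presence alone, the R2 was 0.134 (exact p = 0.00649), and with square roots of the shares it was 0.167 (exact p = 0.0195). The nearest mouse was of the same group for all 6 tyrosol mice, and for 4 of the 6 model mice. Model mouse 6 had a mean distance of 0.922 to its own group, and tyrosol mouse 6 of 0.775.

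In the even-depth table, 4617 ASVs were found in the 12 mice. Of these 1021 were found in both groups, which is 37.2% of the ASVs of tyrosol mice and 35.3% of those of model mice, and they held 94.1 and 92.5% of the counts. The tyrosol mice alone had 1723 and the model mice alone 1873. Most of these were found in a single mouse, 1430 and 1624 ASVs. In all 6 mice of a group, 87 ASVs were found in tyrosol and 28 in model, and 21 in all 12 mice, with ASV_14106 of Acinetobacter and ASV_7902, named Akkermansia muciniphila, among them.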

How the data were processed

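Feces of 12 mice, 6 tyrosol and 6 model, were analysed by 16S rRNA gene sequencing. The authors merged the reads, removed low-quality and chimeric ones, assigned taxa and deposited the raw counts of each sequence with no normalization. Singletons were removed from one table, used for shares and tests, and another was rarefied by the authors to 39768 counts, used for richness and distances. The taxonomy version is not given in the sources used here. Groups came from the labels, and replicate numbers from the sample titles. The tables carry other numbers for some model mice. Of 30 pairs of mice within a group, 0 had identical counts. The labels do not name litter or cage, and p-values measure the spread between these mice.

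Counts were summed per phylum, family and genus and compared with edgeR 4.0.16 in R 4.3.3 (TMM, robust quasi-likelihood test) over features that reached 10 counts in 4 or more of the 12 mice, which kept 7 of 26 phyla, 58 of 172 families, 101 of 342 genera and 424 of 5558 ASVs. Shares were compared by two-sided exact permutation tests over all splits of the mice, whose smallest p is 0.0022. Adjusted p-values are Benjamini-Hochberg adjusted over all features of a rank, with a threshold of 0.05. The R2 of the group in Bray-Curtis distances was tested over the same splits. Intervals and the floor of 3 counts cover counting error only, since reads carry no molecular identifiers. An at-least fold sets each library of the lower group to that floor. Procedures were tested on simulated data.

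Taxa named were the 5 phyla, 8 families and 10 genera with the largest mean share, called families, genera and up to 10 ASVs, the 5 largest rises and 5 largest falls among genera by unadjusted p, the ASVs of called genera, and members on which the count of a list turned. The comparison and the lists were chosen with earlier results of these data known. Alternatives were DESeq2 1.42.0, limma 3.58.1 on centred log-ratios with 0.5 added, no TMM or TMM with singleton pairing, a fit of all 30 mice, a minimum of 50 counts or none, the other tables, a replicate block, each mouse left out and, for shares, log10, ranks and totals without Acinetobacter. Leaving out both mice 6 was added after the data were seen. The tables of the other groups entered only as values. No ASV sequence is given here.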

Additional observations from a re-analysis of the deposited data

Results flagged for a closer look

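Outliers were sought in 99 groups of 6 values, which were shares of taxa or diversity indices. In 29 of them, all of shares, the highest value was flagged. Its gap to the next mouse was larger, as a part of the range of the group, than Dixon's 95% critical value for 6 mice. Chance flags about 1 in 20 groups of normally distributed values, and its rate for skewed shares such as these was not computed. Some of these taxa hold the same counts at different ranks. Model mouse 6 had 10 of the values, with Firmicutes at 78.2%, Planococcaceae at 42.0%, Sporosarcina at 41.9%, Desulfovibrionaceae at 17.7%, unidentified_Desulfovibrionaceae at 16.8%, Lachnospiraceae at 14.6%, [Ruminococcus] at 13.8%, Streptococcus at 2.53%, Lactococcus at 0.133% and Collinsella at 0.00598%. Model mouse 2 had 5, with Caulobacteraceae at 3.63%, Brevundimonas at 3.23%, Ochrobactrum at 3.17%, Comamonadaceae at 0.735% and Sphingobacterium at 0.379%. Model mouse 1 had 4, with Psychrobacter at 7.57%, Verrucomicrobia at 5.36%, Aerococcaceae at 4.28% and Aerococcus at 4.198%. Model mouse 3 had unclassified_Pseudomonadaceae at 0.273%.

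Among the tyrosol mice, mouse 6 had Staphylococcus of Staphylococcaceae at 40.6% and Salinicoccus at 4.92%, and mouse 5 had Planococcaceae at 3.07%. Tyrosol mouse 4 had Subdoligranulum at 0.289%, Pseudomonas of Pseudomonadaceae at 0.0799% and unclassified_Pseudomonadaceae at 0.0432%. Tyrosol mouse 2 had Christensenellaceae at 0.189% and Sphingobacterium at 0.0285%, and tyrosol mouse 1 had Coprococcus at 0.315%. The share of Collinsella in the tyrosol mice was not among these values.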

How the results depend on the processing

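Collinsella, Christensenella and Coriobacteriaceae were called in every alternative fit of the counts made for them, while Caulobacteraceae were called in 12 of 20. By exact permutation tests of shares, both genera had an adjusted p of 0.0547. Other calls of 6 against 6 mice depended on the filter and the tool. Genera called, 2 in the report, were 6 with DESeq2, 5 with centred log-ratios, 11 with no filter, 1 at a minimum of 50 counts, 4 with all 30 mice and 0 by exact permutation tests of shares, and 2 to 5 with a mouse left out. Families called, 2 in the report, were 8 with DESeq2, 6 with centred log-ratios, 7 with no filter, 5 at a minimum of 50 counts, 4 by exact permutation tests, 1 without both mice 6, and 1 to 3 with a mouse left out. ASVs called, 36 in the report, were 2 with no filter, 9 at a minimum of 50 counts, 17 in the even-depth table and 22 by exact permutation tests. Depth limits taxa below about 10 counts per mouse, which were not tested.

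With a replicate block, families called were 1, genera 3 and ASVs 23, and the R2 was 0.129 with p = 0.03125, the smallest that exact permutation within 6 pairs allows. Caulobacteraceae were at -3.47 with it (edgeR, adjusted p = 0.189). The deviations of same-numbered mice correlated from -0.144 to 0.319, so the numbers are not taken to pair the mice.

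Among indices, genera in place of ASVs gave differences of -10 (observed), -7.22 (Chao1), 0.262 (Shannon) and 0.0457 (Pielou evenness), and observed ASVs differed by -23 without both mice 6. With a mouse left out, differences ran from -42.7 to 49.9 for observed ASVs, -6.38 to 108 for Chao1, -0.242 to 0.137 for Shannon, -0.00425 to 0.0211 for Simpson and -0.0211 to 0.00999 for Pielou evenness. Jaccard distance gave an R2 of 0.134 and square roots 0.167. In presence, ASVs in both groups were 483 with at least 2 mice of a group, tyrosol alone 1033 with at least 2 counts and 425 with at least 2 mice, and model alone 424 with at least 2 mice.

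Single taxa that changed sign were all uncalled. Log2 fold changes with centred log-ratios were 0.44 for Lachnospiraceae, 0.72 for Desulfovibrionaceae, 1.37 for Sporosarcina, 1.05 for unidentified_Desulfovibrionaceae and -0.38 for Coprococcus. With the replicate block they were 0.41 for Lachnospiraceae, 0.58 for Desulfovibrionaceae, 0.034 for Acinetobacter, 2.43 for Sporosarcina, 1.99 for unidentified_Desulfovibrionaceae and 0.85 for [Ruminococcus]. Without both mice 6 they were 1.22 for Lachnospiraceae, 0.79 for Desulfovibrionaceae, -0.69 for Staphylococcus (Staphylococcaceae), 2.96 for Sporosarcina, 0.95 for unidentified_Desulfovibrionaceae and 1.39 for [Ruminococcus].

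Differences in share on the log10 scale were 0.161 for Lachnospiraceae, 0.244 for Desulfovibrionaceae, 0.0599 for Acinetobacter, 0.412 for Sporosarcina, 0.46 for unidentified_Desulfovibrionaceae and 0.143 for [Ruminococcus]. Differences in mean rank were 1 for Planococcaceae, 2 for Lachnospiraceae, 0.333 for Desulfovibrionaceae, 2.33 for Sporosarcina, 2 for unidentified_Desulfovibrionaceae and 1.33 for [Ruminococcus]. Without Acinetobacter in the total, Lachnospiraceae differed by 0.490 and the facultative anaerobes together by -3.05 percentage points. Without both mice 6, the differences in percentage points were 1.65 for Lachnospiraceae, 0.237 for Desulfovibrionaceae, 0.0940 for Sporosarcina, 0.503 for unidentified_Desulfovibrionaceae, 0.998 for [Ruminococcus], 0.0220 for Streptococcus and -1.40 for the facultative anaerobes.

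With a mouse left out, log2 fold changes ran from -0.0039 to 1.45 for Staphylococcaceae, -1.24 to 1.06 for Lachnospiraceae, -2.11 to 0.68 for Desulfovibrionaceae, -1.09 to 0.15 for Acinetobacter, -7.93 to 2.76 for Sporosarcina, -2.48 to 0.84 for unidentified_Desulfovibrionaceae, -2.50 to 1.16 for [Ruminococcus], -0.39 to 2.25 for Coprococcus and -2.50 to 0.024 for Streptococcus. Differences in share ran, in percentage points, from -0.382 to 0.992 for Verrucomicrobia, -0.0965 to 0.611 for Bacteroidetes, -1.48 to 1.38 for Lachnospiraceae, -3.40 to 0.134 for Desulfovibrionaceae, -19.5 to 1.02 for Moraxellaceae, -8.30 to 0.0827 for Sporosarcina, -2.93 to 0.417 for unidentified_Desulfovibrionaceae, -1.94 to 0.811 for [Ruminococcus], -0.410 to 0.0861 for Streptococcus, -0.00105 to 0.0619 for Coprococcus, -0.667 to 0.00118 for Lactobacillus, -16.9 to 2.99 for Acinetobacter and -0.548 to 7.44 for the facultative anaerobes. The causes were not tested.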
